A study of Danio rerio with 24 samples.

Results

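The comparison set *elavl3:Gal4* larvae against wild-type (WT) larvae at 3 days post fertilization (dpf), with 4 RNA-Seq libraries in each group, 8 of the 24 libraries of the series. All 25538 genes listed with counts for these libraries were taken, of 26693 in the tables used. *elavl3:Gal4* larvae carried the pan-neuronal driver transgene *Tg(elavl3:Gal4-VP16)nns6*, labelled huC:gal4:gcry:RFP, in which the promoter of the neuronal gene *elavl3* makes the yeast transcription factor Gal4, and the label names a red fluorescent protein with gcry, a gamma-crystallin promoter of the lens. No UAS transgene, which Gal4 would switch on, is named for them. WT larvae carried no transgene, and the wild-type stock of the study was WIK. The sources used here do not give the strain background of the driver line, so the transgene, its place of insertion and the background of the line cannot be told apart in this design. In the study the driver line served as control for *elavl3:Gal4; UAS:fynY531F* larvae (fynY531F larvae below), which carry the driver together with a constitutively active Fyn kinase, so the comparison with WT asks how the driver line itself differs from wild-type larvae. Each library came from a pool of 10 whole larvae, and no label ties the libraries of a group to separate clutches, so p-values measure the spread between pools.

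The Gal4-UAS system separates the tissue that drives a transgene from the transgene itself: Gal4 binds UAS sites placed in front of the gene to be expressed. Elavl3 is an RNA-binding protein of postmitotic neurons, and the study describes the *elavl3* driver as pan-neuronal. Which cells of the retina make Gal4 was not measured here. At 3 dpf a zebrafish larva has just hatched. The trunk muscle works, the jaw and fin cartilage is being laid down, and the retina is only beginning to form its synapses, photoreceptors and bipolar cells being among the last retinal cells to mature.

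The total counts of the *elavl3:Gal4* libraries were 11994432, 30549007, 11386454 and 12712060, against 12779944, 12984894, 12945676 and 12803852 in the WT libraries. Within a group, the median Pearson r between 1 library and the rest, on log2 CPM over 20932 genes, lay between 0.990 and 0.992 in *elavl3:Gal4* and between 0.990 and 0.991 in WT. Mitochondrial genes took 3.11 to 3.603% of counts in *elavl3:Gal4* and 3.33 to 3.47% in WT libraries, and the 50 most abundant genes took 18.96 to 19.2% in *elavl3:Gal4* and 17.5 to 18.04% in WT libraries. Of 18 markers of larval tissues, 17 were in the files, and 16 of these had counts in all 8 libraries. The exception was the muscle gene *mylpfa*, with a mean of 0.848 CPM in *elavl3:Gal4* and 0.699 CPM in WT, while the muscle actin *actc1b* averaged 11631 CPM over *elavl3:Gal4* and 8820.1 CPM over WT libraries. Levels are in CPM, the counts of a gene relative to library size, scaled with TMM factors.

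The gene whose promoter makes Gal4 did not differ detectably. *elavl3* (ENSDARG00000014420, chromosome 3 from 46800190 to 46818001 on GRCz11) had 374, 408, 379 and 349 CPM in *elavl3:Gal4* larvae, against 346, 391, 346 and 379.5 CPM in WT larvae (log2 fold change 0.02, SE 0.06, adjusted p = 0.854, from the quasi-likelihood test of edgeR after Benjamini-Hochberg adjustment, like every adjusted p of the text). The groups overlapped. Its neuronal paralog *elavl4* had 363 ± 23.97 CPM in *elavl3:Gal4* and 394 ± 17.5 CPM in WT larvae (SD, n = 4), with an adjusted p of 0.166. *elavl2* had too few counts to be tested, with means of 0.631 CPM in *elavl3:Gal4* and 0.503 CPM in WT. *fyna* (ENSDARG00000011370, chromosome 17 from 15502964 to 15528597), the Src family kinase from which the study's transgene was built, had 69.1, 76.6, 81.9 and 70.8 CPM in *elavl3:Gal4* larvae, against 86.4, 85.3, 90.5 and 84.5 CPM in WT larvae. Every *elavl3:Gal4* library was below every WT library, and *fyna* was called lower by a narrow margin (log2 fold change −0.24, SE 0.06, adjusted p = 0.0489). The call held in 1 of the 8 fits that left out 1 library. In fynY531F larvae, whose transgene adds to the counts of this gene, *fyna* averaged 897 CPM. Its paralog *fynb* averaged 27.14 ± 3.15 CPM in *elavl3:Gal4* and 27.9 ± 1.52 CPM in WT larvae (SD, n = 4, adjusted p = 0.701).

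Of 19279 genes tested, 923 were called at an adjusted p under 0.05 (4.79%), of which 351 were higher (1.82%) and 572 lower (2.97%) in *elavl3:Gal4* than in WT larvae. Most changes were small. Among called genes the median size of the log2 fold change was 0.40, and 36 exceeded 1. The median over all tested genes was 0.0031. In 844 called genes the 4 libraries of one group all lay on one side of the 4 of the other, as they did for 7.33% of all tested genes in the higher and 5.72% in the lower direction. All 923 called genes kept their sign in every fit that left out 1 library. They were selected in these same libraries, so the kept signs say little about stability. The number of calls moved widely. Without *elavl3:Gal4* replicate 1, 2, 3 or 4 there were 301, 336, 1521 and 63 calls, and without WT replicate 1, 2, 3 or 4 there were 202, 164, 55 and 1090. Only 39 genes, 23 higher and 16 lower, were called in all 8 of these fits. With library totals in place of TMM factors the median over all genes moved to −0.05 and 1209 genes were called, 203 higher and 1006 lower. A fit of all 24 libraries, whose shared spread takes in a 5 dpf library that stands apart (below), called 0 genes by edgeR, with 1751 at an unadjusted p under 0.05, and 834 without that library, 255 higher and 579 lower, a choice made after seeing the data. DESeq2 on the 8 libraries called 1461.

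Several of the steepest falls were in genes of the retina's second-order neurons. Bipolar cells carry the signal of photoreceptors to the ganglion cells, and the ON type reads glutamate through a metabotropic receptor held in place by leucine-rich repeat proteins. *cabp2a* (ENSDARG00000052016, chromosome 1 from 44127292 to 44141442), a calcium-binding protein related to calmodulin that modulates presynaptic calcium channels, had 2.06, 2.55, 4.88 and 1.68 CPM in *elavl3:Gal4* larvae, against 10.22, 6.21, 8.67 and 8.20 CPM in WT larvae. The groups did not overlap, with *elavl3:Gal4* replicate 3 and WT replicate 2 closest to each other (log2 fold change −1.62, SE 0.27, adjusted p = 0.0149). *lrit1a* (ENSDARG00000019179, chromosome 13 from 29462249 to 29467558), a leucine-rich repeat protein of photoreceptor synapses, had 1.40, 2.52, 4.46 and 2.82 CPM in *elavl3:Gal4* larvae, against 11.7, 6.21, 9.74 and 6.67 CPM in WT larvae. It too was lower in every *elavl3:Gal4* library (log2 fold change −1.66, SE 0.29, adjusted p = 0.0168). Nyctalopin, made from *nyx*, anchors the ON bipolar receptor complex and had 1.15, 1.36, 4.21 and 1.602 CPM in *elavl3:Gal4* larvae, against 6.01, 4.30, 4.66 and 4.83 CPM in WT larvae. Here *elavl3:Gal4* replicate 3 almost reached the lowest WT library (log2 fold change −1.33, SE 0.33, adjusted p = 0.0413), and the call held in 1 of 8 fits that left out 1 library, against 6 for *cabp2a* and 6 for *lrit1a*.

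The rho subunits of retinal GABA receptors fell with them. *gabrr1* had 0.741, 0.904, 1.599 and 1.22 CPM in *elavl3:Gal4* larvae, against 5.08, 1.69, 3.73 and 2.34 CPM in WT larvae (log2 fold change −1.58, SE 0.36, adjusted p = 0.0309), and the 4 *elavl3:Gal4* libraries were all below the lowest WT library by a small distance. *gabrr2a* averaged 2.15 ± 0.904 CPM in *elavl3:Gal4* and 5.43 ± 1.303 CPM in WT larvae (SD, n = 4), with a log2 fold change of −1.36 (SE 0.26, adjusted p = 0.0203). *rgs16*, a regulator of G-protein signalling, averaged 1.59 ± 0.633 CPM in *elavl3:Gal4* and 4.37 ± 0.726 CPM in WT larvae (SD, n = 4), with a log2 fold change of −1.52 (SE 0.25, adjusted p = 0.0157). The other genes with large falls, taken from genes whose mean log2 CPM reached 1 and whose groups did not overlap, were the voltage-gated sodium channel *scn12aa* (log2 fold change −1.305), the ubiquitin ligase *rchy1* (−1.27), the thyroid hormone carrier *ttr* (−1.26), the cortexin *ctxn3* (−1.13), the sorting nexin *snx8b* (−1.07) and the synaptic adhesion protein *igsf21b* (−1.05), with standard errors between 0.20 and 0.30.

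**Figure D1:**
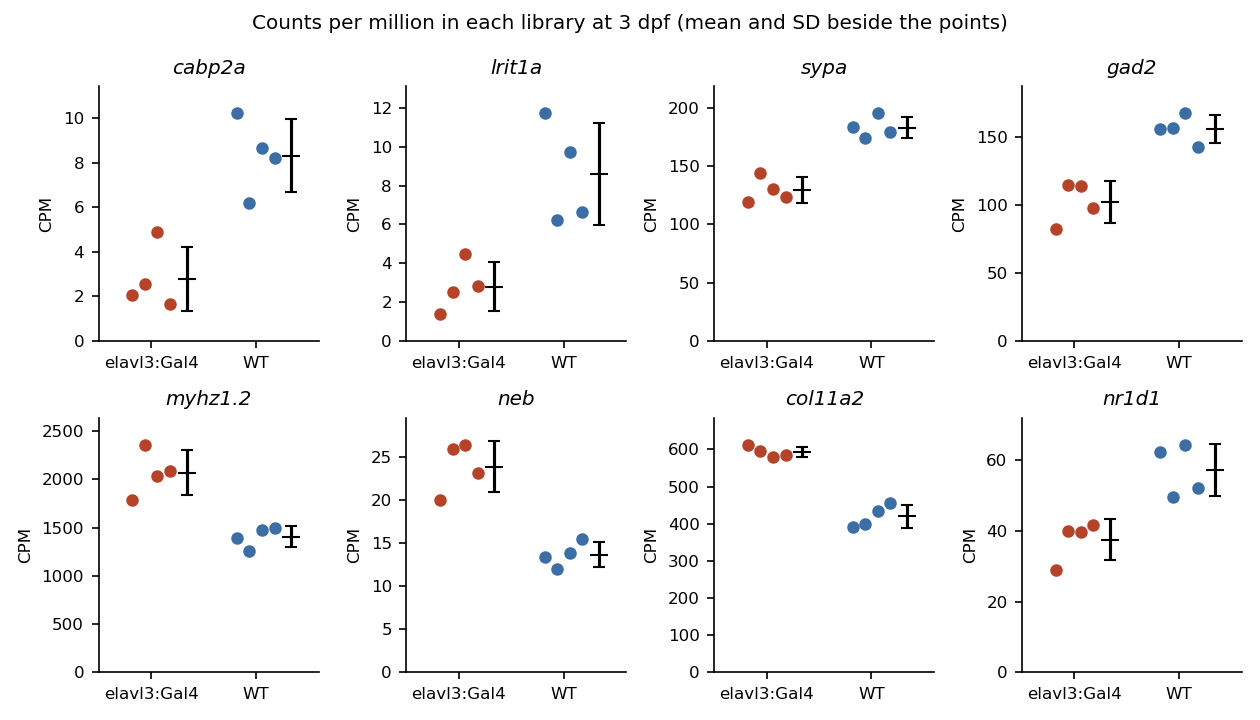
Level in CPM (y axes, from 0) of 8 genes in the 4 *elavl3:Gal4* and the 4 WT libraries at 3 dpf, 1 point a library in the order of the replicate numbers, with the mean and SD beside the points. The 2 retinal genes *cabp2a* and *lrit1a*, the neuronal genes *sypa* and *gad2* and the clock gene *nr1d1* lie lower in *elavl3:Gal4*, and the muscle genes *myhz1.2* and *neb* and the collagen gene *col11a2* lie higher, with no overlap between the groups in any of the 8.

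A list of 33 bipolar cell genes and their synaptic partners was drawn up after these values were seen and is given as a description only, since whole larvae were used and fewer cells of a type and less RNA per cell cannot be told apart. Of its 26 tested members, 10 were called lower and 0 higher, beside 2.97% and 1.82% of all tested genes. In 25 of the 26 the fold change was below 0, and the median was −0.53, against 0.0031 over all genes. The number called lower was 5, 5, 14 and 0 without *elavl3:Gal4* replicate 1, 2, 3 or 4, and 4, 5, 0 and 10 without WT replicate 1, 2, 3 or 4. Members that were not called included the bipolar transcription factor *vsx1* (log2 fold change −0.81, SE 0.55, adjusted p = 0.411) and the glutamate receptor *grm6b* (log2 fold change −0.83, SE 0.29, adjusted p = 0.121), named here after their values were seen. The retinal factor *crx* (0.05) stood nearer to 0 and, named on the same terms, was not called.

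Photoreceptor and visual cycle genes lay in the same direction but varied more between libraries. Of 51 tested members of the list, 47 had a fold change below 0 and the median was −0.54, yet only 5 were called lower and 0 higher. Over all tested genes 2.97% were called lower and 1.82% higher. The calls on the list were few enough to name. All 5 are named here, the last 2 after their values were seen. They were *rpe65a*, the retinoid isomerase of the pigment epithelium (log2 fold change −0.85, SE 0.20, adjusted p = 0.034), the retinaldehyde-binding proteins *rlbp1a* (−0.64, SE 0.15) and *rlbp1b* (−0.91, SE 0.23), the arrestin *sagb* (−0.51, SE 0.13) and retinoschisin *rs1a* (−0.54, SE 0.14). *rpe65a* had 29.7, 39.2, 43.2 and 19.4 CPM in *elavl3:Gal4* larvae, against 67.9, 47.5, 68.2 and 50.3 CPM in WT larvae. The cone transducin *gnat2*, one of the markers, had 51.5, 158, 166 and 108 CPM in *elavl3:Gal4* larvae, against 244, 130.5, 236 and 195 CPM in WT larvae. These groups overlapped, and *gnat2* was not called (log2 fold change −0.75, SE 0.28, adjusted p = 0.143). Rhodopsin (*rho*, −0.57, SE 0.20) and the ultraviolet cone opsin (*opn1sw1*, −0.84, SE 0.28) were not called either, and are named after their values were seen.

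The mean log2 level of the photoreceptor list, relative to the mean of the WT libraries, was −1.10, −0.26, −0.09 and −0.54 in the *elavl3:Gal4* libraries, against 0.15, −0.32, 0.19 and −0.02 in the WT libraries. The first *elavl3:Gal4* library was far below all others, the third near the WT mean, and WT replicate 2 below 2 of the *elavl3:Gal4* libraries. With *elavl3:Gal4* replicate 3 left out, 15 members were called lower, and with any of 6 of the other 7 libraries left out none was called by edgeR. The exception was WT replicate 4, without which 2 were called. The list held 32 members with an unadjusted p under 0.05. Its median stayed between −0.67 and −0.39 in the 8 fits. For the bipolar list, written after the values were seen, the same levels were −0.93, −0.64, −0.23 and −0.77 in the *elavl3:Gal4* libraries. The WT libraries stood at 0.21, −0.22, 0.05 and −0.04. The highest *elavl3:Gal4* library, again replicate 3, lay just under the lowest WT library, again replicate 2. Members of this list were chosen with these libraries seen, so the separation is a description only.

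Genes of lens fibres, in the same organ, gave no call, beside 4.79% called of all tested genes. Of 49 lens crystallin and membrane protein genes 0 were called by edgeR, with 2 at an unadjusted p under 0.05 and 0 called by DESeq2, and the median was 0.02. The summed level of the list was 14993 to 17004 CPM in *elavl3:Gal4* and 13836 to 17067 CPM in WT libraries. Among pigment genes, whose products colour the eye as well as the skin, 1 of 32 was called, the melastatin channel *trpm1b* (log2 fold change −0.40, SE 0.08, adjusted p = 0.0197). The mammalian TRPM1 channel also works in ON bipolar cells, and *trpm1b* is on the bipolar list too.

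**Figure D2:**
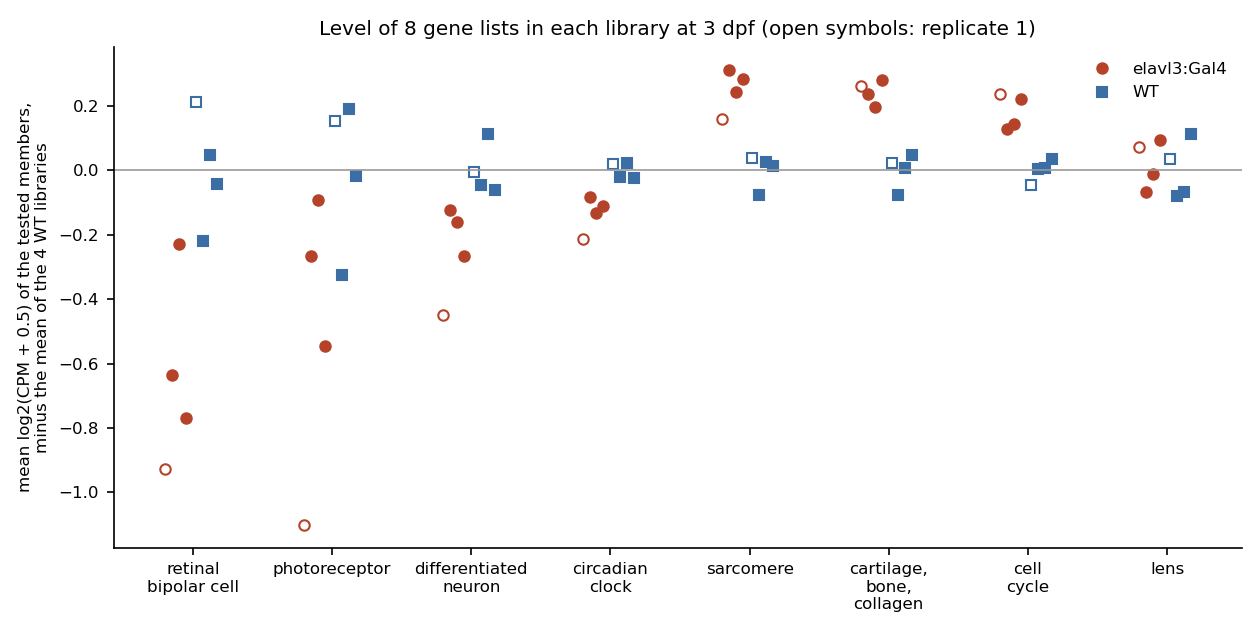
Mean of log2(CPM + 0.5) over the tested members of 8 gene lists in each library at 3 dpf, minus the mean of the 4 WT libraries (y axis), with *elavl3:Gal4* as circles left of WT as squares and replicate 1 of each as an open symbol. *elavl3:Gal4* replicate 1 is the lowest library for photoreceptor genes (−1.10), bipolar cell genes and neuronal genes. The sarcomere and cartilage lists lie above WT in all 4 *elavl3:Gal4* libraries, and lens genes overlap. The bipolar cell list was written after the values were seen.

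Many genes of differentiated neurons were also lower. Of 43 tested genes for synaptic vesicles, transmitter synthesis and the axon, 20 were called lower and 0 higher, with a median of −0.27. Over all tested genes 2.97% were called lower and 1.82% higher. *sypa*, a synaptophysin of synaptic vesicles, had 119, 144, 130.5 and 123.4 CPM in *elavl3:Gal4* larvae, against 183, 174, 195 and 179 CPM in WT larvae (log2 fold change −0.52, SE 0.07, adjusted p = 0.0104). *gad2*, which makes the inhibitory transmitter GABA, had 82.1, 115, 114 and 97.6 CPM in *elavl3:Gal4* larvae, against 155, 157, 167 and 142 CPM in WT larvae (log2 fold change −0.63, SE 0.09, adjusted p = 0.0119). In both genes the 4 *elavl3:Gal4* libraries lay below the 4 WT libraries, with replicate 1 the lowest, and both were called in 8 of the 8 fits that left out 1 library. The vesicle calcium sensor *syt1a* averaged 212 ± 18.9 CPM in *elavl3:Gal4* and 288 ± 21.8 CPM in WT larvae (SD, n = 4, log2 fold change −0.47, SE 0.07, adjusted p = 0.0134). Members that showed little difference included the neurofilaments *neflb* (0.15) and *nefmb* (0.20), the axonal protein *map1b* (0.09) and the neuronal splicing factor *rbfox3a* (0.05), which are named after their values were seen and were not called. The count of the list called lower was 6, 13, 23 and 2 without *elavl3:Gal4* replicate 1, 2, 3 or 4, and 7, 4, 2 and 19 without WT replicate 1, 2, 3 or 4. Its median stayed between −0.32 and −0.23.

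Receptors and channels of neurons showed the same direction in lists made by symbol after the values were seen. Of 67 subunits of receptors for glutamate, GABA, glycine and acetylcholine, 15 were called lower and 0 higher (median −0.35). Over all tested genes 2.97% were called lower and 1.82% higher. The number called lower was 4, 7, 17 and 0 without *elavl3:Gal4* replicate 1, 2, 3 or 4, and 2, 5, 0 and 14 without WT replicate 1, 2, 3 or 4. The obligatory NMDA receptor subunit *grin1b* had 64.2, 91.1, 101 and 78.7 CPM in *elavl3:Gal4* larvae, against 160.2, 132, 145 and 122.6 CPM in WT larvae (log2 fold change −0.76, SE 0.12, adjusted p = 0.0136), with no overlap. Its duplicate *grin1a* averaged 119.7 ± 15.2 CPM in *elavl3:Gal4* and 165 ± 11.04 CPM in WT larvae (SD, n = 4, log2 fold change −0.49). Receptor subunits of the muscle endplate stood on the other side of 0, *chrna1* at 0.16, *chrnb1* at 0.31 and *chrnd* at 0.17. None of these was called, and they are named after their values were seen. Of 93 subunits of voltage-gated sodium, calcium and potassium channels, 15 were called lower and 4 higher (median −0.21). These are shares of 16.1% and 4.30%, beside the same 2.97% and 1.82% of all tested genes. With *elavl3:Gal4* replicate 1, 2, 3 or 4 left out 5, 9, 16 and 1 were lower. With WT replicate 1, 2, 3 or 4 left out 4, 2, 0 and 17 were. The lower ones included *cacng8a* (−0.63, SE 0.10) and *cacng3b* (−0.53, SE 0.09), on the list by symbol alone, whose products escort AMPA receptors. The sodium channel subunit *scn2b* (−0.49, SE 0.09) was another. Of the 4 higher ones, *cacna1sa* (0.34, SE 0.08) and *cacna1sb* (0.49, SE 0.08) encode the calcium channel of skeletal muscle. The neuronal sodium channel *scn8ab* was also higher (log2 fold change 0.84, SE 0.20, adjusted p = 0.0372).

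Neuropeptides and the proteins of their granules had a median of −0.40, in a list also made after the values were seen, and 37 of 39 were below 0. Of the 39, 7 were called lower and 0 higher, beside 2.97% and 1.82% of all tested genes. Without 1 library 3 to 11 were called lower, the most without *elavl3:Gal4* replicate 3. The secretogranin *scg2b* had 67.5, 72.2, 80.3 and 74.1 CPM in *elavl3:Gal4* larvae, against 103, 96.4, 109 and 97.6 CPM in WT larvae (log2 fold change −0.49, SE 0.07, adjusted p = 0.0104). *adcyap1b*, which encodes the peptide PACAP, averaged 65.0 ± 4.25 CPM in *elavl3:Gal4* and 87.4 ± 5.26 CPM in WT larvae (SD, n = 4, log2 fold change −0.45, SE 0.07, adjusted p = 0.0104). The corticotropin-releasing hormone gene *crhb*, at the head of the stress axis, averaged 1.41 ± 0.138 CPM in *elavl3:Gal4* and 2.71 ± 0.107 CPM in WT larvae (SD, n = 4, log2 fold change −0.96, SE 0.19, adjusted p = 0.0217). It was the 1 gene called among 22 of the glucocorticoid list, which it is also on, beside 4.79% called of all tested genes. The growth factor *bdnf* was lower too (log2 fold change −0.44, SE 0.10, adjusted p = 0.0251).

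The study followed dopamine neurons. Of 14 tested catecholamine and dopamine neuron genes, 2 were called lower and 0 higher, beside 2.97% and 1.82% of all tested genes. The list median was −0.34. The transcription factors *nr4a2a* and *otpb*, which act in the making of dopamine neurons, were the ones called (log2 fold change −0.43, SE 0.09, adjusted p = 0.0213 for *nr4a2a* and log2 fold change −0.45, SE 0.11, adjusted p = 0.0351 for *otpb*). *nr4a2a* had 19.7, 23.5, 18.005 and 21.4 CPM in *elavl3:Gal4* larvae, against 26.1, 29.5, 28.4 and 26.6 CPM in WT larvae, with no overlap, and *otpb* had 35.2, 39.2, 46.6 and 40.4 CPM in *elavl3:Gal4* larvae, against 56.2, 54.1, 62.3 and 44.0 CPM in WT larvae, with some. Tyrosine hydroxylase (*th*), the first enzyme of dopamine synthesis, was not called (log2 fold change −0.38, SE 0.38, adjusted p = 0.606), nor was the dopamine transporter *slc6a3* (log2 fold change −0.42, SE 0.17, adjusted p = 0.18), and both are named after their values were seen. The counts of this list ran from 0 to 4 in the fits that left out 1 library. Neural progenitor genes gave a median of 0.0033 with 1 of 31 called, beside 4.79% of all tested genes. That gene was *pax6a* (log2 fold change −0.38, SE 0.09, adjusted p = 0.0351), a factor of the retina and brain. Of 23 glial genes 2 were called higher and 1 lower, beside 1.82% and 2.97% of all tested genes. The myelin gene *mbpb* (0.23, SE 0.05) and the filament gene *gfap* (0.26, SE 0.06) were higher, and the glutamate transporter *slc1a3b* (−0.24, SE 0.06) was lower.

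Muscle genes held the most calls among the lists that rose, and 63 of the 77 in the sarcomere list were above 0. Of the 77, 31 were called higher and 0 lower, beside 1.82% and 2.97% of all tested genes, with a median of 0.25. Nebulin (*neb*, ENSDARG00000032630, chromosome 9 from 22805138 to 22892838), the giant protein that lies along the thin filament, had 20.01, 26.0, 26.4 and 23.2 CPM in *elavl3:Gal4* larvae, against 13.4, 11.99, 13.9 and 15.5 CPM in WT larvae (log2 fold change 0.79, SE 0.11, adjusted p = 0.0104). The fast myosin heavy chain *myhz1.2* had 1785, 2357, 2037 and 2091 CPM in *elavl3:Gal4* larvae, against 1392, 1256, 1472 and 1497 CPM in WT larvae (log2 fold change 0.53, SE 0.08, adjusted p = 0.0104). Muscle creatine kinase *ckmb*, which buffers ATP, had 4203, 4699, 4531 and 4478 CPM in *elavl3:Gal4* larvae, against 3159, 3118, 3354 and 3576 CPM in WT larvae (log2 fold change 0.42, SE 0.05, adjusted p = 0.0104). In these 3 genes the lowest *elavl3:Gal4* library was above the highest WT library, and the call held in all 8 fits that left out 1 library. The myosin gene *myha* (0.74, SE 0.15), the immunoglobulin-like sarcomere protein *igfn1.1* (0.68, SE 0.10) and the small heat shock protein *hspb8* (0.77, SE 0.15) were also among the 10 largest rises that the same terms gave. Myosin heavy chains lie in clusters of near-identical copies, and reads may have been split between them.

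Some muscle genes stood elsewhere. The slow troponin *tnnt1* had a log2 fold change of −0.26 (SE 0.15), the light chain *myl2b* −0.34 (SE 0.25) and the heart marker *myl7* 0.18 (SE 0.09). None of these 3 was called, they are named after their values were seen, and the difference between fast and other muscle genes was not tested. Further genes of the M-band, Z-disc, calcium release and muscle metabolism, listed after the values were seen, gave 32 higher and 0 lower of 53. Over all tested genes 1.82% were called higher and 2.97% lower. The median of these further genes was 0.33. Without 1 library 9 to 33 were called higher, the fewest without *elavl3:Gal4* replicate 4 or WT replicate 3. They included the M-band protein *myom1a* (0.55, SE 0.08), the Z-disc proteins *ldb3a* (0.63, SE 0.08) and *flnca* (0.46, SE 0.06) and the glycogen debranching enzyme *aglb* (0.52, SE 0.08). Summed over the sarcomere list, the level was 58618 to 67431 CPM in *elavl3:Gal4* and 47456 to 52247 CPM in WT libraries. The number of sarcomere genes called higher was 27, 19, 32 and 6 without *elavl3:Gal4* replicate 1, 2, 3 or 4, and 18, 11, 8 and 30 without WT replicate 1, 2, 3 or 4, while the median stayed between 0.23 and 0.26. With library totals as scaling the sarcomere median was 0.19 and that of differentiated neurons −0.33.

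Several cartilage and collagen genes rose too. Of 43 tested genes of cartilage, bone and collagen, 10 were called higher and 0 lower (median 0.25), beside 1.82% and 2.97% of all tested genes. *col11a2*, a chain of cartilage collagen, had 613, 596, 581 and 584 CPM in *elavl3:Gal4* larvae, against 390.1, 400.5, 433 and 456 CPM in WT larvae (log2 fold change 0.48, SE 0.06, adjusted p = 0.0104). The groups were far apart compared with the spread within them. *col9a2* averaged 705 ± 19.5 CPM in *elavl3:Gal4* and 530.3 ± 33.8 CPM in WT larvae (SD, n = 4, log2 fold change 0.39, SE 0.06, adjusted p = 0.0104), and the cartilage proteoglycan *acanb* 26.7 ± 1.41 CPM in *elavl3:Gal4* and 19.1 ± 2.27 CPM in WT larvae (SD, n = 4, log2 fold change 0.47, SE 0.09, adjusted p = 0.018). The main cartilage collagen, *col2a1a*, named after its value was seen, was not called (log2 fold change 0.13, SE 0.09, adjusted p = 0.451). The collagen chaperone *serpinh1b* was higher (log2 fold change 0.46, SE 0.10, adjusted p = 0.0273), as was the matrix protein *chadlb* (log2 fold change 0.95, SE 0.18, adjusted p = 0.0187). The number of these genes called was 5, 4, 17 and 2 without *elavl3:Gal4* replicate 1, 2, 3 or 4, and 2, 2, 3 and 13 without WT replicate 1, 2, 3 or 4.

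Genes of dividing and growing cells stood slightly above 0. Of 62 replication and mitosis genes, 55 were above 0 (median 0.15) and 4 were called higher, beside 1.82% of all tested genes. Among the 4 were the mitotic motor *cenpe* (log2 fold change 0.41, SE 0.08, adjusted p = 0.0217), the replicative helicase subunit *mcm6* (0.35, SE 0.09) and the topoisomerase *top2a* (0.27, SE 0.07). In 17 of the 62 the *elavl3:Gal4* libraries all lay above the WT libraries, beside 7.33% of all tested genes. Of 61 ribosome biogenesis genes, 55 were above 0 (median 0.16), in 22 the *elavl3:Gal4* libraries all lay above WT and 4 were called higher, including *rrp12* (0.27, SE 0.05), *dkc1* (0.23, SE 0.05) and *nop2* (0.27, SE 0.07), which process ribosomal RNA. Without 1 library the number called higher ran from 0 to 9 for the cell cycle and from 0 to 6 for the ribosome biogenesis list. In both it was 0 without *elavl3:Gal4* replicate 4 or WT replicate 3, and highest without WT replicate 4. *hsp90aa1.1*, a chaperone that folds muscle myosin in zebrafish, had 122, 120.4, 113 and 110.2 CPM in *elavl3:Gal4* larvae, against 91.7, 83.8, 82.7 and 87.7 CPM in WT larvae (log2 fold change 0.40, SE 0.06, adjusted p = 0.0104), and it and the collagen chaperone above were the 2 called of 29 genes on the heat shock list. That list does not hold the small heat shock protein *hspb8*, which was called higher (above).

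Most clock genes stood slightly below 0. Of 41 tested, 38 were below 0 (median −0.14), with 4 called lower (0 to 5 without 1 library, and 0 without *elavl3:Gal4* replicate 4 or WT replicate 3) and 0 higher. Over all tested genes 2.97% were called lower and 1.82% higher. *nr1d1* (Rev-erb alpha), a repressor in the second loop of the clock, had 28.8, 39.9, 39.8 and 41.7 CPM in *elavl3:Gal4* larvae, against 62.4, 49.6, 64.3 and 52.2 CPM in WT larvae (log2 fold change −0.62, SE 0.11, adjusted p = 0.0174). Every *elavl3:Gal4* library was below every WT library. The other 3 called, of which *tefb* is named after its value was seen, were the output factors *dbpa* (−0.46, SE 0.10) and *tefb* (−0.21, SE 0.06) and the repressor *nr1d2b* (−0.28, SE 0.07), while the core genes *per2* (−0.03), *clocka* (−0.02) and *cry1aa* (−0.04) were near 0 and are named after their values were seen. The sources used here do not give the hour at which larvae were taken, and its part in these values was not tested. Immediate-early genes, which answer stimulation within minutes, had 3 of 35 called lower, beside the same 2.97%, and a median of −0.10. The 3 were *dusp2* (−0.46, SE 0.12), *junbb* (−0.38, SE 0.09) and *cebpb* (−0.22, SE 0.05).

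Blood, liver, gut and yolk lists gave 1 to 4 calls each, beside 4.79% called of all tested genes. Of 27 enterocyte genes 4 were called higher and 0 lower, but 15 lay below 0 (median −0.11), and the number called higher ran from 0 to 4 without 1 library. Of 32 liver and plasma genes 2 were called higher and 2 lower (median 0.16). Of 18 hatching gland and yolk genes 15 lay above 0 and 2 were called higher (median 0.29). Of 17 globin and red cell genes 16 lay above 0 and 1 was called higher (median 0.23). The lipoprotein genes *apoa1a* (log2 fold change 0.56, SE 0.09, adjusted p = 0.0149), *apoa4b.2* (0.32, SE 0.05) and *apoeb* (0.38, SE 0.08), which are made in the yolk layer as well as in liver, gut or macrophages, were higher, as were the fatty-acid-binding protein *fabp1b.1* (0.29, SE 0.07) and the plasma protein *fetub* (0.28, SE 0.07). The vitamin D carrier *gc* (log2 fold change −0.61, SE 0.11, adjusted p = 0.0168) and the complement gene *c3a.3* (−0.84, SE 0.19) were lower. The red cell spectrin *sptb* (0.33, SE 0.07), the inflammatory caspase *caspb* (0.35, SE 0.08), the skin keratin *krt4* (0.28, SE 0.07) and the cytochrome P450 *cyp2aa3* (0.46, SE 0.09) were higher, and the aryl hydrocarbon receptor *ahr1b* (−0.61, SE 0.11) and the antioxidant regulator *nfe2l2b* (−0.51, SE 0.10) lower.

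Lists of stressed, dying and immune cells gave few calls or none, beside 4.79% called of all tested genes. Lists this short would hold few calls at that share, so the counts alone do not set these lists apart. By edgeR 0 of 29 p53 and cell death genes, 0 of 37 genes of the unfolded protein response, 0 of 19 interferon-induced genes, 0 of 17 antigen-presentation genes, 0 of 39 proteasome genes and 0 of 19 neutrophil genes were called, with 2, 8, 2, 2, 2 and 4 at an unadjusted p under 0.05 in the same order. DESeq2 called 0, 2, 0, 1, 0 and 0. Their medians lay between −0.06 and 0.14. Among 21 macrophage and microglia genes 1 was called, *apoeb*, but 15 lay above 0 (median 0.18). The mean log2 level of that list, relative to the WT mean, was 0.14, 0.22, 0.10 and 0.16 in the *elavl3:Gal4* libraries. The WT libraries stood at −0.08, −0.02, 0.04 and 0.06, all lower. Of 24 complement genes 16 lay above 0 (median 0.15). Exocrine pancreas (19 tested), cholesterol synthesis (28), fatty acid oxidation (41) and the mitochondrial genome (13) also had 0 called by edgeR, with 3, 0, 5 and 1 at an unadjusted p under 0.05 and 0, 0, 3 and 0 called by DESeq2. Of the 19 exocrine pancreas genes 14 lay below 0 (median −0.26).

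**Figure D3:**
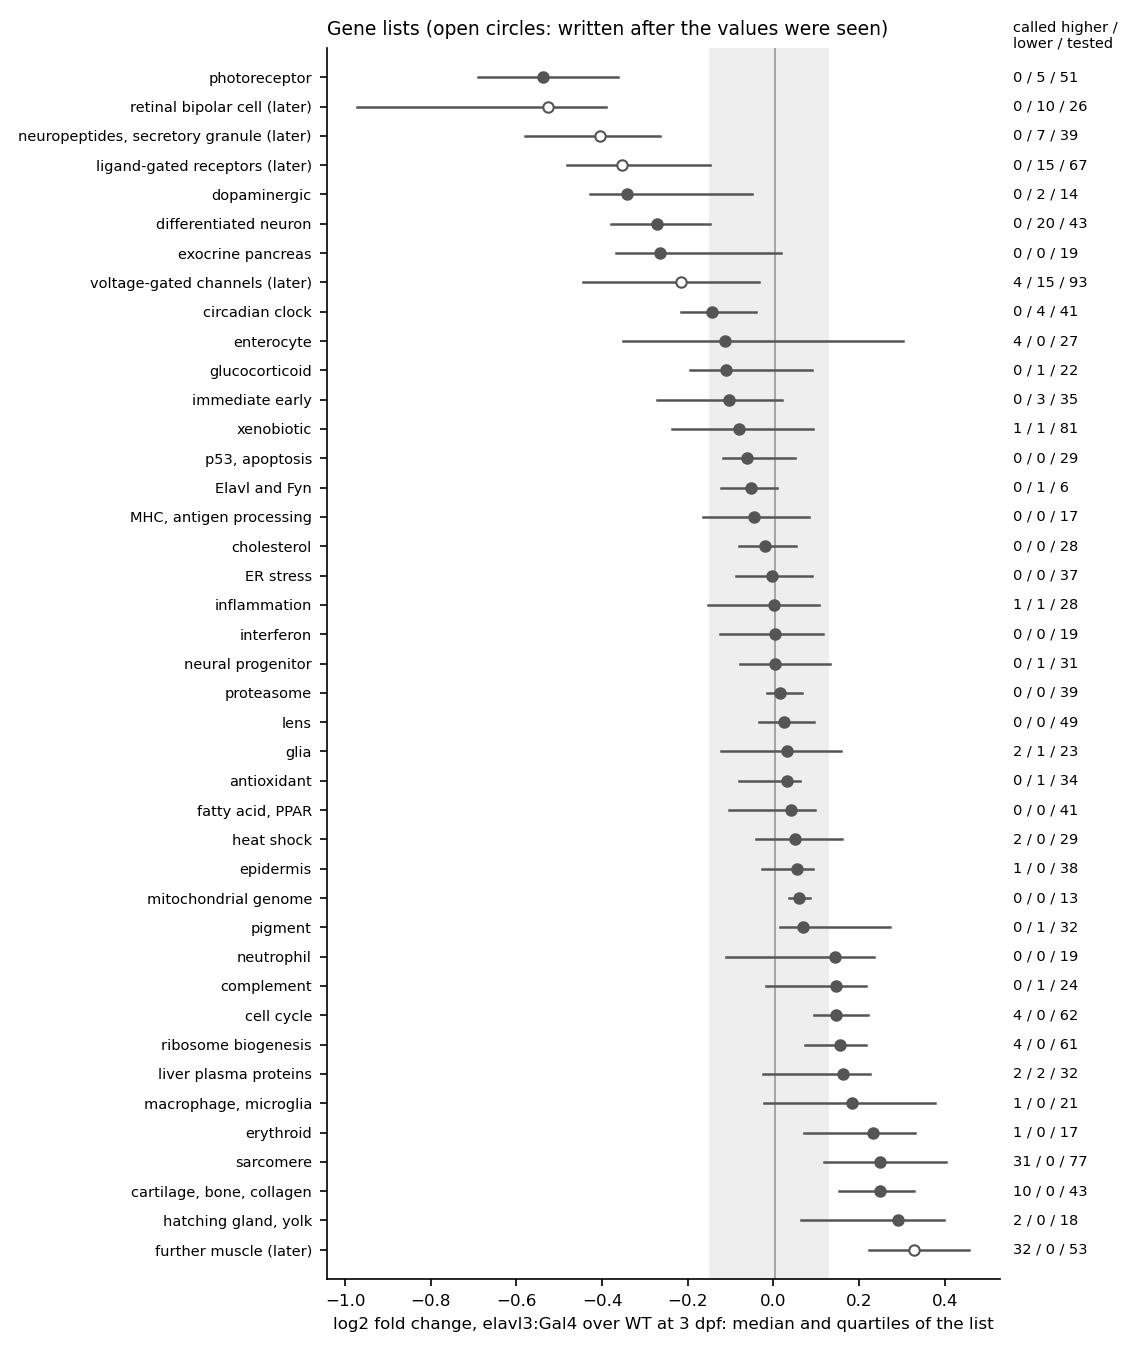
Median (circle) and quartiles (line) of the log2 fold change of *elavl3:Gal4* over WT at 3 dpf for 41 gene lists, with the number called higher, called lower and tested at the right, and in grey the quartiles of all 19279 tested genes (−0.15 to 0.13). Open circles mark the 5 lists written after the values were seen. Retinal and neuronal lists and exocrine pancreas (−0.26) lie at the left, and muscle, cartilage, and hatching gland and yolk (0.29) at the right. Most other lists lie within the grey band, while erythroid (0.23), macrophage (0.18) and some others lie to its right.

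No called gene was close to absent in one group and clearly present in the other. The limit of at most 3 counts over the 4 libraries of one group and at least 50 over the other, with at least 5 in each library, was met by 0 genes, and a limit of 10 counts by 1. That gene was the kinase-like *pimr209* (ENSDARG00000058532, chromosome 16 from 7688368 to 7692568), with 0.823, 0.969, 0.925 and 0.992 CPM in *elavl3:Gal4* larvae, against 0.143, 0.141, 0.0716 and 0.146 CPM in WT larvae (log2 fold change 2.79, SE 0.40, adjusted p = 0.0104). Its counts were 10 to 30 per library in *elavl3:Gal4* and 1 to 2 in WT, and the *pim*-related family has many similar copies, so its reads are uncertain. *soga3a* (ENSDARG00000088571, chromosome 16 from 5196226 to 5231397), on the same chromosome, had 2.88, 2.74, 2.44 and 2.82 CPM in *elavl3:Gal4* larvae, against 1.14, 1.34, 0.788 and 1.47 CPM in WT larvae (log2 fold change 1.17, SE 0.23, adjusted p = 0.0198). The deubiquitinase *usp42* had 2.22, 5.91, 0.673 and 2.90 CPM in *elavl3:Gal4* larvae, against 0.143, 0.353, 1.22 and 0.440 CPM in WT larvae (log2 fold change 2.50, SE 0.61, adjusted p = 0.0397), with overlap and a wide spread within *elavl3:Gal4*. The remaining large rises were *sprb*, a sepiapterin reductase (0.90, SE 0.16), the cell adhesion gene *bcam* (0.79, SE 0.19) and *cmn* (0.71, SE 0.13), which encodes the notochord matrix protein calymmin.

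Called genes were spread over the genome. The share called on the 25 chromosomes lay between 3.32% on chromosome 4 and 5.84% on chromosome 21, beside 4.79% over all genes, and was 4.68% on chromosome 3, which holds *elavl3*. Of 274 windows of 5 Mb with at least 20 tested genes, the highest share was 13.04%, 3 of 23 genes. The window on chromosome 16 from 5000001 to 10000000 held 8 called genes of 72 (11.11%), *pimr209*, *soga3a* and *bves* among them. It is given for these genes, and windows on chromosomes 11 (11.67%) and 13 (11.25%) had higher shares. Of the chromosomes, 16 held the most called genes with a log2 fold change over 1 in size, 5 of 859 tested. *bves*, which encodes a membrane protein of muscle that binds cAMP, had 10.9, 11.2, 10.4 and 9.92 CPM in *elavl3:Gal4* larvae, against 15.4, 17.1, 18.8 and 18.6 CPM in WT larvae (log2 fold change −0.74, SE 0.09, adjusted p = 0.0104), a call that held in all 8 fits that left out 1 library. Called genes varied with length. Of 4 groups of equal size by length, in the longest (median 5644 bases) 180 were higher and 166 lower with a median log2 fold change of 0.04, and in the shortest (median 1156 bases) 31 were higher and 85 lower with a median of −0.03. The part of length in these values was not tested.

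Genes that change with age were used to place the libraries between 3 and 5 dpf. They were taken from fynY531F larvae at the 2 ages, which share no library with this comparison but carry the driver and the Fyn transgene. There, 2676 of 19691 genes (13.6%) changed by more than 1 on the log2 scale at an adjusted p under 0.05 (edgeR). Of the 1635 rising ones that were tested here, 71 were called lower and 8 higher in *elavl3:Gal4* than in WT larvae, and 66.5% had a fold change below 0 (median −0.10). Of the 704 falling ones, 15 were called lower and 41 higher, and 63.5% had a fold change above 0 (median 0.11). The other 16940 genes had 486 lower and 302 higher and a median of 0.0081. In the fits that left out 1 library the medians stayed between −0.12 and −0.09 for the rising and between 0.10 and 0.11 for the falling genes.

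On a scale where the mean of fynY531F larvae is 0 at 3 dpf and 1 at 5 dpf, the *elavl3:Gal4* libraries at 3 dpf stood at 0.13, 0.19, 0.18 and 0.19, against 0.25, 0.22, 0.26 and 0.22 for the WT libraries. The 4 *elavl3:Gal4* libraries were all lower, and replicate 1, which also had the lowest photoreceptor and neuronal levels, was the lowest. At 5 dpf the positions were 1.01, 1.06, 1.07 and 1.04 in *elavl3:Gal4* and 0.99, 1.017, 0.998 and 1.04 in WT, and overlapped. On the 704 falling genes alone the groups did not overlap at 5 dpf. These genes gave 0.87, 0.88, 0.95 and 0.905 in *elavl3:Gal4*, against 0.81, 0.75, 0.75 and 0.82 in WT. At 3 dpf they gave 0.06, 0.04, 0.04 and 0.07 in *elavl3:Gal4*, against 0.12, 0.14, 0.16 and 0.12 in WT. On them *elavl3:Gal4* stood nearer fynY531F larvae of the same age at both ages. On the rising genes the groups overlapped at 5 dpf. Many of the lists with negative medians in *elavl3:Gal4* had positive ones between the 2 ages of fynY531F larvae. Among them were photoreceptor (0.41), bipolar cell (0.18) and neuronal genes (0.22). The clock, immediate-early, enterocyte, neuropeptide, receptor and channel lists were others. Of lists with positive medians in *elavl3:Gal4*, sarcomere (−0.37) and cell cycle genes (−0.36) were among those with negative ones. Some lists had the same sign in both comparisons. The dopaminergic list was negative with age too (−0.10), and cartilage, bone and collagen (0.28), liver (0.26), macrophage and microglia (0.16) and complement genes (0.18) were positive in both. The part of developmental stage in the differences was not tested.

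**Figure D4:**
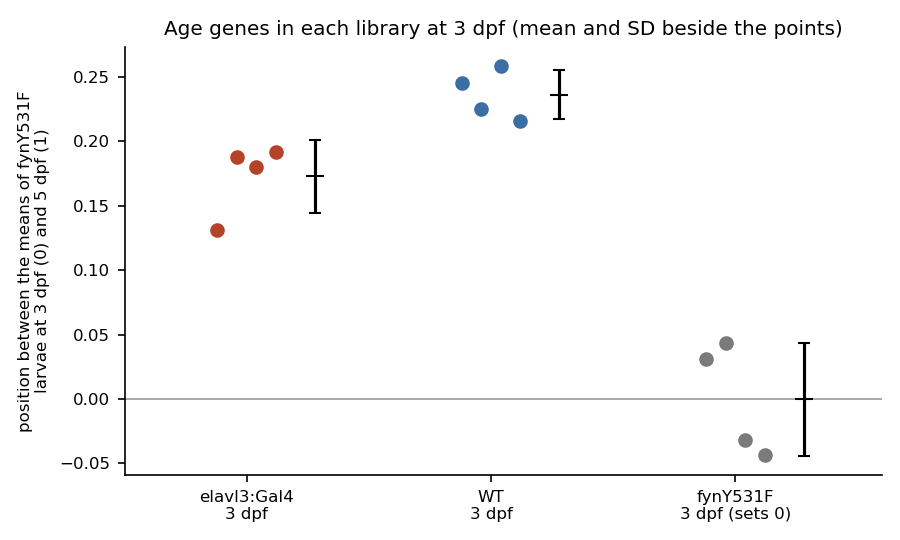
Position of each library at 3 dpf (y axis, 0 being the mean of fynY531F larvae at 3 dpf and 1 their mean at 5 dpf) computed on 2339 genes that changed with age, with the mean and SD of the 4 libraries beside the points. The *elavl3:Gal4* libraries lie between 0.13 and 0.19, all below the WT libraries, and the fynY531F libraries set the 0.

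The same comparison at 5 dpf, in other libraries, gave far fewer calls, by DESeq2 134 against 1461 at 3 dpf. In simulated counts with 200 of 19671 genes changed and the spread of all 8 libraries, the edgeR fit at 5 dpf recovered 0% of changes of 0.5 or of 1. At 3 dpf it recovered 49% and 76%. The number of calls therefore cannot show whether the difference was smaller at 5 dpf. No simulation of this comparison or of the interaction was run without the 5 dpf library that stands apart (below). Only 10 of 19671 genes (0.0508%) were called, all lower in *elavl3:Gal4*, and 0 of them were among the 923 called at 3 dpf by edgeR, while 182 genes had an unadjusted p under 0.05 at both ages and DESeq2 called 14 at both. One 5 dpf library, *elavl3:Gal4* replicate 3, had a median r of 0.872 with the rest of its group, and without it 389 of 19906 genes (1.95%) were called. Of these, 32 were called at 3 dpf too, 15 in the same direction. Without that library, 475 of the 921 genes called at 3 dpf and tested at 5 dpf had the same sign at 5 dpf (51.6%). The genes called higher at 3 dpf had a median log2 fold change of 0.35 at 3 dpf and 0.02 at 5 dpf, and those called lower −0.42 and 0.01. With all 5 dpf libraries, 530 of 919 had the same sign. The medians at 5 dpf were then −0.0002 for genes called higher and −0.09 for those called lower. Without replicate 3 the list medians at 5 dpf were 0.06 for differentiated neurons, −0.05 for photoreceptors and 0.02 for sarcomere genes, against −0.24 for bipolar cell and −0.19 for clock genes. In that fit 6 photoreceptor genes and 9 clock genes were called lower at 5 dpf, beside 304 of 19906 genes in all, so single photoreceptor genes were lower at 5 dpf although the median of the list was near 0. With all 8 libraries the medians were 0.06, 0.05, 0.40, −0.22 and −0.34 in the same order.

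**Figure D5:**
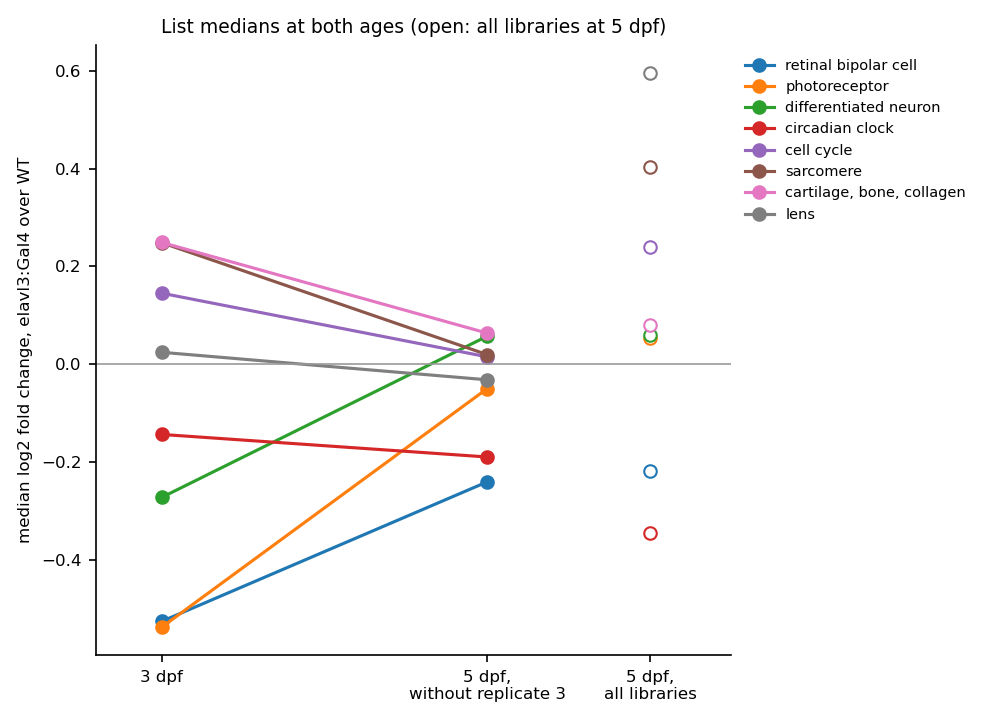
Median log2 fold change of *elavl3:Gal4* over WT (y axis) of 8 gene lists at 3 dpf and at 5 dpf without *elavl3:Gal4* replicate 3 (filled, joined), and at 5 dpf with all libraries (open). Neuronal, photoreceptor and sarcomere lists are within 0.06 of 0 at 5 dpf without that library, and the bipolar cell and clock lists stay below 0. The bipolar cell list was written after the values were seen.

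In simulated counts a test of interaction over 16 libraries recovered 0% of changes of 0.5 and 4% of changes of 1. The change of the difference with age was tested as such an interaction. It was called in 38 of 20177 genes (0.188%), 9 with a positive and 29 with a negative sign, and without *elavl3:Gal4* replicate 3 at 5 dpf in 506 of 20362 (2.49%). Of the 923 genes called at 3 dpf it was called in 6, and in 200 without that library. *cmn* was higher at 3 dpf (0.71) and had −1.26 at 5 dpf, an interaction of −1.97 (SE 0.32, adjusted p = 0.0163). With all libraries the interaction was 1.42 in *cabp2a* (adjusted p = 0.32), 0.61 in *gad2* (adjusted p = 0.318) and 0.38 in *sypa* (adjusted p = 0.407), none of them called. Without that library it was 1.24 in *cabp2a* (adjusted p = 0.0647), 0.70 in *gad2* (adjusted p = 0.0116) and 0.44 in *sypa* (adjusted p = 0.0335), the last 2 of them called.

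Some of the 15 genes called in the same direction at both ages once that 5 dpf library was left out are named here, the choice to leave it out having been made after the data were seen. *nr1d1* had a log2 fold change of −0.62 at 3 dpf and −1.004 at 5 dpf (adjusted p = 2.20e-05). *bves* had −0.74 and −0.55 (adjusted p at 5 dpf = 0.0222), *bdnf* −0.44 and −0.52 (adjusted p at 5 dpf = 0.0044). Among higher genes, *serpinh1b* had 0.46 and 0.88 (adjusted p at 5 dpf = 0.0019), *aglb* 0.52 and 0.46 (adjusted p at 5 dpf = 0.0078) and *myhz1.2* 0.53 and 0.38 (adjusted p at 5 dpf = 0.0222). Others of the 32 called at both ages had opposite signs. *apoa1a* had 0.56 at 3 dpf and −0.50 at 5 dpf (adjusted p at 5 dpf = 0.0041), and *flnca* 0.46 and −0.53 (adjusted p at 5 dpf = 0.0363).

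Levels in fynY531F larvae at 3 dpf, which carry the same driver, stood near those of *elavl3:Gal4* larvae for some of these genes and near those of WT for others. *cabp2a* averaged 2.80 CPM in fynY531F, 2.79 in *elavl3:Gal4* and 8.33 in WT larvae, and *bves* 10.0, 10.6 and 17.5 CPM. *gad2* averaged 115, 102 and 155 CPM. The differentiated neuron list as a whole stood near or above WT in fynY531F larvae. Its mean log2 level, relative to the WT mean, was 0.12, −0.05, 0.09 and 0.21 in the fynY531F libraries. The *elavl3:Gal4* libraries had −0.45, −0.12, −0.16 and −0.27. The bipolar list, written after the values were seen, had −0.59, −0.96, −0.76 and −0.67 in the fynY531F libraries. The muscle gene *myhz1.2* was at 1328 CPM in fynY531F, 2067 in *elavl3:Gal4* and 1404 in WT larvae. In the same order the cartilage gene *col11a2* was at 407, 593 and 419.9 CPM. Of the neuropeptide genes *scg2b* was at 212, 73.5 and 102 CPM, highest in fynY531F. These are levels set side by side, and the differences from fynY531F larvae were not tested here.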

How the data were processed

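Poly(A) RNA of pools of whole larvae was sequenced. The authors deposited whole-number read counts per gene, which were used as raw counts. HISAT2 2.0.5, StringTie 1.3.3b, featureCounts 1.5.0-p3 and the build GRCz11 are named in the submitters' processing notes, with their roles not given there, and the sources used here do not give the strand setting, so reads of antisense or overlapping genes cannot be separated. Deposited columns of FPKM and of the authors' own fold changes and p-values were not used. Groups came from the sample labels.

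Genes were kept by filterByExpr, scaled with TMM factors and tested with edgeR 4.0.16 (quasi-likelihood, two-sided, limma 3.58.1, R 4.3.3), with only the 8 libraries in the fit and Benjamini-Hochberg adjustment over all tested genes. Calls needed an adjusted p under 0.05. The SE was the size of the log2 fold change over the root of F. CPM used TMM factors over 24 libraries, and levels of lists used log2(CPM + 0.5). DESeq2 1.42.0 was an alternative. The simulated counts for the 3 dpf comparison had 200 of 19279 genes changed. The fit recovered 49% of changes of 0.5 and 76% of changes of 1 on the log2 scale, and 7.41% of its 135 calls were false. In the simulated 5 dpf comparison it recovered 0%.

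Genes were named by a rule: *elavl* and *fyn* genes, the 10 largest changes per direction among called genes of separated groups whose mean log2 CPM reached 1, the 5 smallest p-values per direction among called genes with a log2 fold change of at least 1 in size, up to 3 called members of each list per direction, and the first genes at both ages and in the interaction. Other genes carry a remark. The members and the 36 gene lists were chosen with earlier results of these data known, and 5 further lists were written after the values were seen. Results for some genes are not reported here.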

Additional observations from a re-analysis of the deposited data

Results flagged for a closer look

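In groups of 4, 66 sets of values were examined for a library far from the others, which chance alone gives in about 1 in 20, and 6 were found. Replicate 2 of *elavl3:Gal4* had a total count of 30549007, more than any other library of the comparison. *sprb* had 9.14 CPM in 1 *elavl3:Gal4* library, and *nyx* 4.21 and *snx8b* 5.3005 CPM, apart from the other 3. In WT, *pimr209* had 0.0716 CPM and *ttr* 3.39 CPM in 1 library apart from the other 3.

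The difference between *elavl3:Gal4* and WT changed from 3 to 5 dpf in 7 genes named here by the interaction test of edgeR, and the values are log2 differences at 5 dpf minus those at 3 dpf. They were −1.97 for *cmn*, 1.05 for the transcription factor *junbb*, 1.39 for the fatty acid desaturase *fads2*, 1.68 for *hmgcra*, the rate-limiting enzyme of cholesterol synthesis, −2.09 for the glucocorticoid target *fkbp5*, −1.28 for *nr4a3* and −2.10 for the deubiquitinase *cyldb*.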

How the results depend on the processing

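At 3 dpf, 923 genes were called, and 1461 with DESeq2, 36 with a log2 fold change over 1 as a further condition, 0 with all 6 groups in one fit (1751 at an unadjusted p under 0.05, 1461 by DESeq2 on 2 groups) and between 55 and 1521 without 1 library. With the replicate number as a block 393 were called, but same-numbered libraries correlated at −0.19, 0.0002, 0.03 and −0.12, so the numbers do not pair the samples. At 5 dpf, 10 were called, 134 with DESeq2, 0 with the replicate block (589 at an unadjusted p under 0.05), 0 with library totals (713) and between 0 and 389 without 1 library. For the interaction, 38 were called, 185 with DESeq2, 27 with the replicate block and between 17 and 506 without 1 library (17 to 25 without a 3 dpf library, and 25, 18 and 23 without WT replicate 1, 2 or 3 at 5 dpf). Of genes nearly absent in one group there were 0, and 1 at a limit of 10 counts. For 100 named genes, 1690 alternative values held 1197 with the same call, 493 with the call lost and 0 with another sign. Other alternatives left these counts within 1.5 times of their values. The cause of these changes was not tested.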
